A study of Homo sapiens with 8 samples.

Results

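The nuclear-encoded subunits of the respiratory chain were examined in U937 cells, a human monocytic line. Members were protein-coding genes whose symbols begin with the subunit stems of complexes I to V, together with the 4 SDH genes, CYC1 and CYCS. Assembly factors were left out. The rule gave 89 genes, of which 86 were listed in at least 1 library and 82 had counts high enough to be tested, among 22653 entries listed and 17503 tested. By complex, 38 of 38 complex I genes, 4 of 4 complex II genes, 9 of 10 complex III genes, 12 of 17 complex IV genes and 18 of 19 complex V genes were tested, together with CYCS.

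All cells were SLC19A1-/- U937 cells and carried a tet-inducible, Flag-tagged transporter, either SLC7A1 or SLC7A2, which import cationic amino acids such as arginine and lysine. Each line was measured without doxycycline (no dox) and after 24 h in doxycycline at 1 µg/mL (dox), with 2 libraries in each of the 4 groups. There was 1 line for each construct and no line without a construct, so the construct and the line cannot be told apart, nor can doxycycline and the transporter in what the lines share. The labels do not say that replicates were separate cultures, and a p-value here reflects how these particular libraries spread, which could be a technical matter alone.

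The respiratory chain lies in the inner mitochondrial membrane. Complexes I (NADH dehydrogenase) and II (succinate dehydrogenase) pass electrons to ubiquinone, complex III passes them to cytochrome c, and complex IV (cytochrome c oxidase) passes them to oxygen, while complex V (ATP synthase) uses the proton gradient to make ATP. Most subunits are encoded in the nucleus, translated in the cytosol and imported, and they assemble with a few subunits encoded in mitochondrial DNA. The transcription factors NRF1 and GABP, an ETS factor, are known for binding the promoters of many of these genes.

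The 250 bases before the transcription start were read for 68 of the 82 tested members from the RefSeq promoter table (GRCh38.p14). Of these, 21 (30.88%) held the NRF1 letters GCGCANGCG on either strand, against 13.89% of 9562 promoters of tested protein-coding genes and 7.02% of all 27305 promoters in the table. The ETS letters CCGGAAG were in 17 (25%), against 16.84% of promoters of tested protein-coding genes and 8.82% of all. The YY1 letters AAGATGGCG were in 1 (1.47%), against 1.11% and 0.64%. The SP1 letters GGGCGGG, by contrast, were in 19 (27.94%), below the 52.55% of promoters of tested protein-coding genes and the 31.45% of all. Among the complexes, NRF1 letters were in 8 of 33 promoters of complex I, 2 of 3 of complex II, 3 of 7 of complex III, 2 of 11 of complex IV and 6 of 13 of complex V. The ETS letters were in 5, 2, 3, 4 and 3 of the same promoters. Matches are a description of the letters and were not tested for binding.

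Promoters are printed 5′ to 3′ on the strand of the gene for the most abundant complex V transcript (ATP5ME, chr4:674277-674526, minus strand), the most abundant transcript of complexes IV and II (COX6B1, chr19:35648073-35648322, plus strand, and SDHB, chr1:17054033-17054282, minus strand) and the gene that varied most between libraries among abundant members (CYCS, chr7:25125261-25125510, minus strand). Capitals mark NRF1 and ETS letters on either strand: 3 NRF1 matches in ATP5ME, 1 ETS match each in COX6B1 and SDHB, and none in CYCS.
ATP5ME: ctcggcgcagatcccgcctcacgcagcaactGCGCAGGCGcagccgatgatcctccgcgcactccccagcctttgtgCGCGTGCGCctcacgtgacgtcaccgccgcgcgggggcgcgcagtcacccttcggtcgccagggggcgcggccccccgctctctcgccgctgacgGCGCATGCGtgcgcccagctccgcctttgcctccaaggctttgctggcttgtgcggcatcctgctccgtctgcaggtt
COX6B1: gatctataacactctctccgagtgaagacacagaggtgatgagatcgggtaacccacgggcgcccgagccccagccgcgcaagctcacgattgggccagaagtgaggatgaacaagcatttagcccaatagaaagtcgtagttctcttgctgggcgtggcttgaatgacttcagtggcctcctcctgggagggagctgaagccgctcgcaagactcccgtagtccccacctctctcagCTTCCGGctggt
SDHB: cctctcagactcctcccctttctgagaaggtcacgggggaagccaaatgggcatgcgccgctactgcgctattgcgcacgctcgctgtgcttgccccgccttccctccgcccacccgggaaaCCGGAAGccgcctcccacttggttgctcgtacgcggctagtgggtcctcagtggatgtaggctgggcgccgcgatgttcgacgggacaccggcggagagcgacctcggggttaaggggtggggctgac
CYCS: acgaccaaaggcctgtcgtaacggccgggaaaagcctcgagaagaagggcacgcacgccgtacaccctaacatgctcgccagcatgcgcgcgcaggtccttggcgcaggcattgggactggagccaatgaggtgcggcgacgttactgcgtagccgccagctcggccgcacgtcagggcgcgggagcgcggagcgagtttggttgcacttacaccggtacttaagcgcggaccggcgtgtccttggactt

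The libraries held 17309132 to 18441833 expected counts each. The members together took 1.60% to 1.73% of them and 34622 to 40548 TPM, a share of all transcripts that divides each gene by its length. All 12 myeloid markers were listed, with a summed level of 3485 to 3787 TPM in the SLC7A1 line without dox, 2656 to 2876 with dox, 2391 to 3726 in the SLC7A2 line without dox and 1876 to 3716 with dox. Most of this sum was the granule proteases ELANE and PRTN3 (means of 1230 and 986 TPM), while MPO (0.321 TPM) and CSF1R (0.20 TPM) were near 0. Markers of T cells summed to at most 0.27 TPM, fibroblast markers to at most 14.83 and epithelial markers to at most 5.84 TPM, both in the SLC7A2 no-dox replicate 2 (0.72 to 2.11 and 1.68 to 3.33 TPM in the other 7). Erythroid markers were at 0 (0 of 5 listed), and B-cell markers summed to 21.43 to 34.47 TPM, nearly all of it CD79A. The induced transporter was uneven in the SLC7A2 line: its tagged entry had 264 CPM (counts scaled to the library total) in dox replicate 1 and 4947 CPM in dox replicate 2, against 0.563 and 9.65 CPM without dox. In the SLC7A1 line the tagged SLC7A1 entry had 845 and 367 CPM with dox and 0.264 and 0 CPM without. These are bulk samples, in which fewer cells of a type and less RNA per cell cannot be told apart.

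In TPM, transcripts of the complexes differed widely in level, and the order of their medians was the same in all 8 libraries. The median of the mean TPM was 608 for complex IV (12 genes), 471 for complex V (18 genes), 256 for complex I (38 genes), 214 for complex III (9 genes) and 151 for complex II (4 genes). Library by library, the median of complex IV stayed between 593 and 631 TPM, that of complex V between 398 and 518, that of complex I between 234 and 279, that of complex III between 174 and 228, and that of complex II between 135 and 168. None of these 5 ranges overlapped, although the levels of single members overlapped between all complexes. The members varied little: the ratio of the highest to the lowest library had a median of 1.29.

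**Figure D1:**
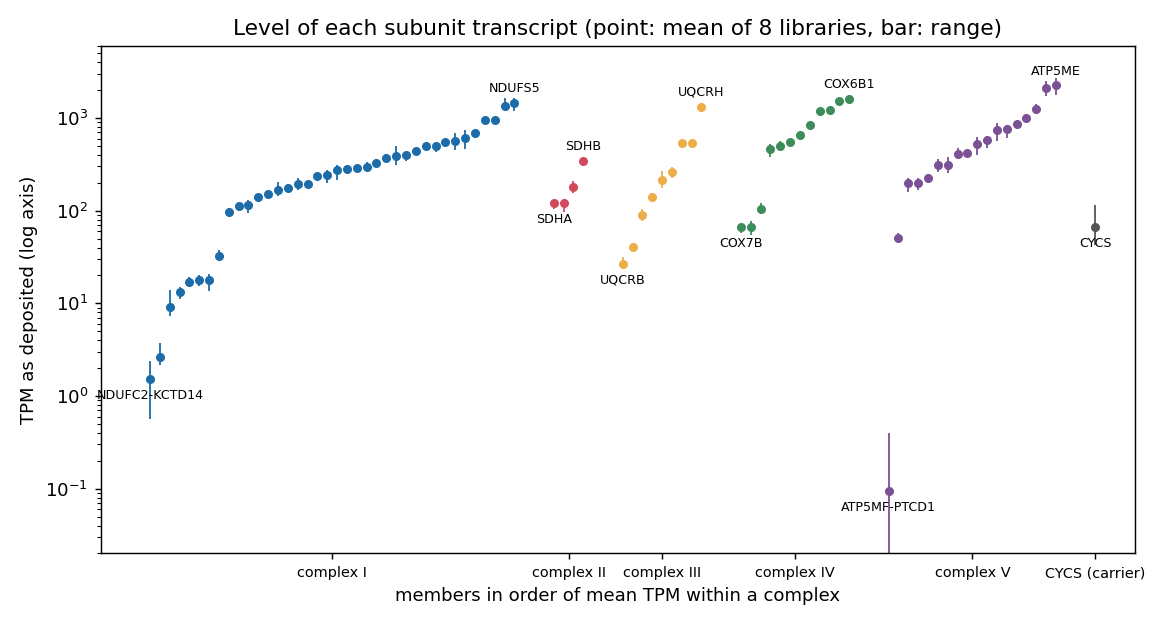
Mean TPM of the 82 tested members over 8 libraries (points, log axis) with the range over libraries (bars), in order within each complex and named at the ends. Most members of each complex lie above 100 TPM (29 of 38 in complex I, 16 of 18 in complex V); the bar of ATP5MF-PTCD1 runs off the axis because it was at 0 in 5 libraries.

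In complex I, the most abundant transcript was NDUFS5 (chr1:39026350-39034615), an accessory subunit on the intermembrane side. It had 1194 and 1417 TPM in the SLC7A1 line without dox, 1214 and 1585 with dox, 1517 and 1609 in the SLC7A2 line without dox, and 1486 and 1636 with dox. The dox and no-dox libraries overlapped within each line. Among the core subunits encoded in the nucleus, NDUFS7 (329 TPM on average), NDUFS3 (287), NDUFV1 (284), NDUFS8 (241) and NDUFV2 (192) made a narrow band. NDUFS1, a core subunit which carries iron-sulfur clusters, had a mean of 2.63 TPM. Among accessory subunits NDUFB9 had 1351 TPM, NDUFB8 954 and NDUFA13 944, and NDUFAB1, the mitochondrial acyl carrier protein, had 602 TPM. The lowest complex I entry was NDUFC2-KCTD14 (chr11:78015715-78079862), a readthrough of NDUFC2 and its neighbour KCTD14, at 0.57 to 2.38 TPM. It shares sequence with NDUFC2 (86.2 to 106 TPM), and how reads were divided between them is uncertain.

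All 4 complex II genes were above 100 TPM on average. SDHB (chr1:17018722-17054032), the iron-sulfur subunit, was highest, with 321 and 318 TPM in the SLC7A1 line without dox, 337 and 344 with dox, 358 and 369 in the SLC7A2 line without dox, and 362 and 359 with dox. SDHA (chr5:218320-268746), the flavoprotein, was lowest, with 115 and 132 TPM, 118 and 124, 128 and 104, and 128 and 108 in the same order. On this scale all 4 SLC7A2 libraries of SDHB stood above the SLC7A1 libraries, but as TMM-normalised CPM, a scale without length, the lines overlapped (199 to 232 and 196 to 228 CPM). The groups of SDHA overlapped, and its 2 lowest values were those of the SLC7A2 libraries numbered 2. SDHC and SDHD, the membrane anchors, had means of 182 and 120 TPM.

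In complex III, the gene with the highest level, UQCRH (chr1:46303698-46316776), the hinge protein beside cytochrome c1, had 1234 and 1316 TPM in the SLC7A1 line without dox, 1193 and 1327 with dox, 1407 and 1444 in the SLC7A2 line without dox, and 1310 and 1399 with dox. Its intronless relative UQCRHL had 0.57 to 2.57 TPM, from 2.27 to 11.2 expected counts a library, and failed the filter. Reads of so similar a pair may be split between them. The core proteins UQCRC1 and UQCRC2 had means of 543 and 262 TPM, and CYC1, cytochrome c1, had 536 TPM. The lowest tested gene was UQCRB (chr8:96222947-96235545), a ubiquinone-binding subunit, at 23.3 to 31.7 TPM.

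Complex IV held the tissue isoforms. COX6B1 (chr19:35648323-35658782), on the intermembrane side, had 1440 and 1531 TPM in the SLC7A1 line without dox, 1510 and 1636 with dox, 1706 and 1632 in the SLC7A2 line without dox, and 1756 and 1625 with dox. Of the isoform pairs, COX4I1 had a mean of 1221 TPM against 0.148 for COX4I2, the isoform known from lung, and COX6B1 1604 against 0.085 for COX6B2, the testis isoform. COX6A1 had 1187 TPM and COX7A2 832 TPM, while the muscle isoforms COX6A2 and COX7A1 were not listed in any library, and neither was COX7B2. COX4I2 rested on 3, 2 and 2 counts in 3 libraries and COX6B2 on at most 3 counts a library, which is at the floor of 3 counts (0.163 to 0.173 CPM), so no ratio is given for them. COX8C, a testis isoform beside COX8A (1519 TPM), was nevertheless counted in all 8 libraries, at 55.0 to 76.7 TPM from 244 to 307 expected counts. Lowest among tested genes was COX7B (chrX:77899468-77907376), with 57.3 and 63.0 TPM in the SLC7A1 line without dox, 60.5 and 69.6 with dox, 73.0 and 72.8 in the SLC7A2 line without dox, and 68.2 and 66.6 with dox.

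In complex V, the membrane subunits ATP5ME and ATP5MF were the most abundant transcripts of the chain. ATP5ME (chr4:672436-674276), subunit e, which takes part in dimer formation, had 1793 and 2234 TPM in the SLC7A1 line without dox, 2001 and 2392 with dox, 2383 and 2733 in the SLC7A2 line without dox, and 2062 and 2429 with dox. The catalytic beta subunit ATP5F1B had a mean of 992 TPM and the alpha subunit ATP5F1A 770 TPM. The 3 genes for the same proton-carrying c subunit differed, with means of 1263 TPM for ATP5MC2, 576 for ATP5MC1 and 312 for ATP5MC3. ATP5MGL, a copy of ATP5MG (199 TPM), had 1 count in 1 library. ATP5MF-PTCD1 (chr7:99416739-99466167), a readthrough, was at 0 in all 4 SLC7A1 libraries and had 0.19, 0, 0.17 and 0.40 TPM in the SLC7A2 line. CYCS (chr7:25118656-25125260), cytochrome c, the carrier between complexes III and IV, had a mean of 66.9 TPM.

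The level per length went with the length used to compute it. Of the 82 members, 47 had a deposited gene length of at most 1 kb, with a median of 502 TPM, against 120 TPM for the 35 longer ones. None of the 11 members under 50 TPM was shorter than 1358 bases. Across genes, which are not independent replicates, Spearman's rho of mean TPM with length was -0.70, and that of the expected count with length was 0.05. NDUFS1, a core subunit of each complex I, was divided by a length of 11640 bases, NDUFA9 by 8356 and UQCRB by 8460. The part of long transcript models in the low TPM of these genes was not tested. Median lengths also differed between the complexes, at 660 bases for IV, 742 for V, 714 for I, 1573 for III and 1403 for II. The order of the complexes given above holds for TPM. As TMM-normalised CPM, which has no division by length, the order was another one. The medians of complexes II and III lay above those of complexes V and I, and that of III lay near that of IV. UQCRFS1, the middle gene of complex III, had 197 to 234 CPM. The median of complex IV lay between COX6C (172 to 216 CPM) and COX5B (206 to 263 CPM).

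**Figure D2:**
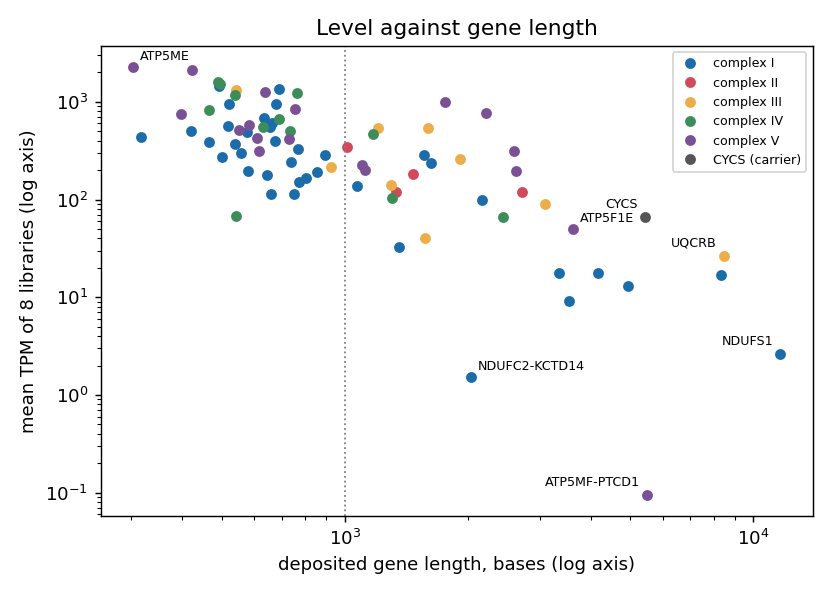
Mean TPM over 8 libraries against the deposited gene length of the 82 tested members (both axes log; the dotted line marks 1 kb; colours give the complex). Members up to 1 kb have a median of 502 TPM and longer ones 120 TPM, and NDUFS1 and UQCRB lie at the long end.

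No subunit gene passed the test for dox in either line, and the fitted values lay within a narrow range. In the SLC7A1 line 64 of 82 members had a higher fitted value with dox, 17 a lower one and 1 was at 0, with a median log2 fold change of 0.049 against -0.003 over all 17503 entries. The medians were 0.041 for complex I, 0.050 for II, 0.043 for III, 0.081 for IV and 0.041 for V. In the SLC7A2 line 13 members were higher and 69 lower, with a median of -0.075 against 0.007 over all entries, and complex medians of -0.073 (I), -0.074 (II), -0.086 (III), -0.063 (IV) and -0.082 (V). Without the 2 readthroughs, fitted values ran from -0.14 (NDUFA5) to 0.22 (NDUFS8) in the SLC7A1 line and from -0.26 (ATP5ME) to 0.29 (NDUFA5) in the SLC7A2 line, where the median SE of a gene was 0.152. The values of NDUFA5 turned to 0.15 without the SLC7A1 no-dox replicate 2, 0.034 without the SLC7A1 dox replicate 1 and -0.094 without the SLC7A2 dox replicate 2. Within complex I the 7 core subunits had medians of 0.037 and -0.084 in the SLC7A1 and SLC7A2 lines. The 31 other entries, the readthrough NDUFC2-KCTD14 included, had 0.050 and -0.067. Within complex V the 5 ATP5F1 genes had 0.043 and -0.056. The 13 other entries, the readthrough ATP5MF-PTCD1 included, had 0.039 and -0.109. Differences between the complexes were not tested.

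By edgeR's quasi-likelihood test with Benjamini-Hochberg adjustment, 0 of 82 members were called in the SLC7A1 line (0% of all entries, 0 entries), with 0 members at an unadjusted p under 0.05 (1.27% of all entries). DESeq2 called 0 members there and 9 entries (0.0514%). In the SLC7A2 line edgeR called 0 members, with 1 member at an unadjusted p under 0.05 (1.28% of all entries), and DESeq2 called 0 members and 10 entries (0.0571%). The median of the members turned to -0.038 in the SLC7A1 line without its dox replicate 2 and was 0.129 without its dox replicate 1. In the SLC7A2 line the median was -0.003 without dox replicate 2 and -0.162 without dox replicate 1, and on the TPM scale it was -0.002, with 40 of 82 members higher and a median of 0.054 over all entries.

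The genes with the smallest p illustrate the spread. UQCRFS1, the Rieske iron-sulfur protein of complex III, had 203 and 197 CPM (TMM-normalised) in the untreated SLC7A1 line and 219 and 233 CPM after dox, a log2 fold change of 0.18 ± 0.12 (SE; edgeR adjusted p = 1.0). COX6A1 had 263 and 248 CPM without and 280 and 289 CPM with dox there, 0.16 ± 0.11 (edgeR adjusted p = 1.0). In both genes the dox libraries lay above those without dox in the SLC7A1 line, but not in the SLC7A2 line, where UQCRFS1 had 212 and 234 CPM without and 204 and 217 CPM with dox.

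In the SLC7A2 line, NDUFB9 (chr8:124539123-124549979), a LYR-motif subunit of complex I, had 496 and 552 CPM without and 461 and 414 CPM with dox, -0.26 ± 0.14 (edgeR adjusted p = 1.0). In the SLC7A1 line it had 531 and 444 CPM without and 448 and 474 CPM with dox, so that its groups overlapped there. The readthrough NDUFC2-KCTD14 had 0.881 and 1.09 CPM without and 2.51 and 3.08 CPM with dox, 1.52 ± 0.51 (unadjusted p = 0.0195, edgeR adjusted p = 1.0), from 15.4 to 60.1 expected counts that depend on the division of reads with NDUFC2. It was the single member under 0.05 without adjustment.

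The difference between the dox effects of the lines was below 0 in 72 of 82 members, with a median of -0.14 against 0.006 over all entries. Complex medians were -0.14 (I), -0.13 (II), -0.14 (III), -0.17 (IV) and -0.13 (V). EdgeR called 0 members and 0 entries (0%), with 1 member, NDUFC2-KCTD14, at an unadjusted p under 0.05 (1.27% of all entries), and DESeq2 called 0 members and 20 entries (0.114%). The largest fitted difference below 0 was that of ATP5ME, -0.46 ± 0.21 (unadjusted p = 0.0605, edgeR adjusted p = 1.0). In the SLC7A1 line it had 93.7 and 85.6 CPM untreated and 93.7 and 112 CPM after dox. The untreated SLC7A2 libraries had 102 and 118 CPM, and those after dox 91.8 and 91.3 CPM. The dox libraries of ATP5ME lay at or above those without dox in the SLC7A1 line and below them in the SLC7A2 line. The median of the members moved to -0.042 without the SLC7A1 dox replicate 2, -0.066 without the SLC7A2 dox replicate 2, -0.217 without the SLC7A1 dox replicate 1 and -0.212 without the SLC7A2 dox replicate 1, and it was -0.064 on the TPM scale.

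Pair by pair, as dox minus no dox for libraries with the same number, the members lay on different sides of 0 within the SLC7A1 line. The median log2 difference was -0.057 in pair 1, with 21 of 82 members higher, and 0.19 in pair 2, with 76 higher. In the SLC7A2 line it was -0.043 in pair 1, with 22 higher, and -0.123 in pair 2, with 14 higher. All 5 complexes were below 0 in SLC7A1 pair 1 (-0.111, -0.037, -0.070, -0.028 and -0.053 for I to V) and above 0 in pair 2 (0.19, 0.074, 0.17, 0.197 and 0.185). They were below 0 in both SLC7A2 pairs (-0.013, -0.052, -0.055, -0.027 and -0.059, then -0.129, -0.116, -0.108, -0.099 and -0.169). Scaling to the library total turned complexes II (0.024), IV (0.033) and V (0.007) in SLC7A1 pair 1 and complex I (0.001) in SLC7A2 pair 1, and put the median of all members in SLC7A1 pair 1 at 0.002.

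Of the 82 members, 2 were higher with dox in all 4 pairs (7.7% of all entries) and 1 was lower in all 4 (7.07% of all entries). UQCRC2, a core protein of complex III, was the lower one (-0.054, -0.016, -0.043 and -0.10). NDUFA9, an accessory subunit of complex I, and COX7A2L, which takes part in joining complexes III and IV, were the higher ones. In the same order of pairs NDUFA9 had 0.0028, 0.17, 0.0005 and 0.014, mostly near 0. COX7A2L had 0.084, 0.013, 0.115 and 0.046. With scaling to the library total, NDUFA9 kept its sign in all 4 pairs, and UQCRC2 and COX7A2L did not.

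The position of each library shows which libraries set these values. Relative to the mean of the 8 libraries, the median member stood highest in the SLC7A1 dox replicate 2 (0.125) and lowest in the SLC7A2 dox replicate 2 (-0.103). The other 6 libraries lay between -0.070 and 0.060. In the SLC7A1 dox replicate 2 the complexes stood between 0.105 and 0.134, and in the SLC7A2 dox replicate 2 between -0.158 (IV) and -0.061 (V). Other genes up to 1 kb, 648 in number and none of them a member, stood at 0.083 and -0.133 in these libraries.

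**Figure D3:**
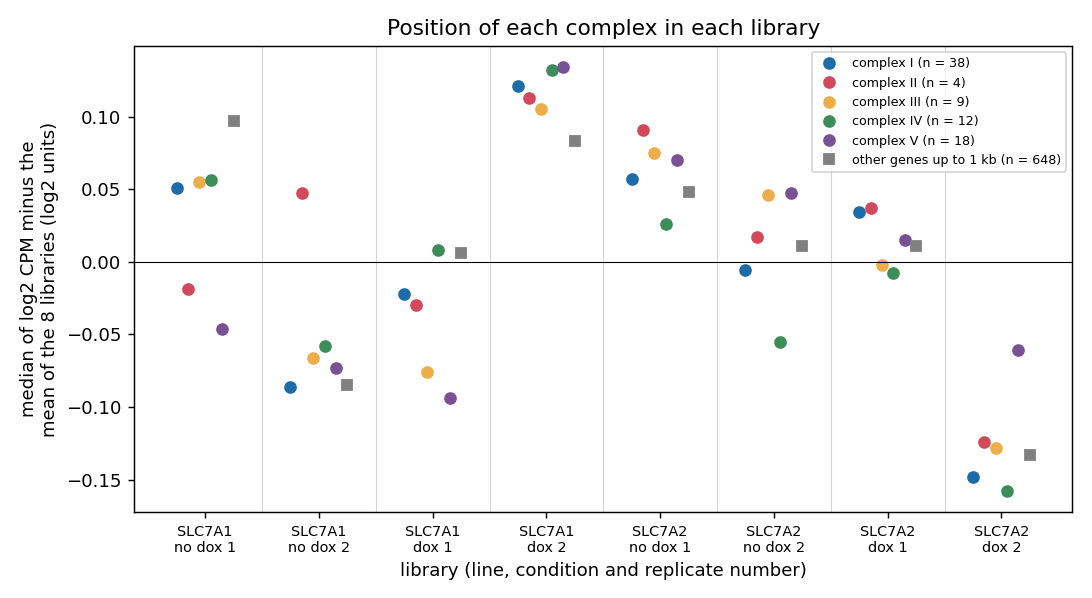
Median over the genes of each complex of log2 CPM minus the mean of the 8 libraries, by library (coloured points), with 648 other genes up to 1 kb in length (grey squares). The complexes are together at 0.105 to 0.134 in the SLC7A1 dox replicate 2 and at -0.158 to -0.061 in the SLC7A2 dox replicate 2, and the other short genes stand at 0.083 and -0.133 there.

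Short genes outside the chain had medians of the same sign in each of the dox comparisons. The 648 others up to 1 kb had a median of 0.033 for dox in the SLC7A1 line, -0.081 in the SLC7A2 line and -0.105 for the difference. The 47 members up to 1 kb had 0.054, -0.070 and -0.153, and the 35 longer members 0.043, -0.079 and -0.099. All 10872 tested genes with a symbol over 1 kb, the longer members included, had 0.002, 0.010 and 0.003. Among gene families, 77 mitochondrial ribosomal protein genes had medians of 0.011, -0.091 and -0.061, and 77 cytosolic ones -0.020, -0.111 and -0.083. The part of gene length in the medians of the complexes was not tested.

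Other genes of the pathway gave no unadjusted calls for dox within a line. The 47 assembly factors, which build the complexes and stay outside them, were higher in 23 and lower in 24 for dox in the SLC7A1 line (median -0.001) and higher in 18 and lower in 29 in the SLC7A2 line (-0.058). The 13 enzymes of the TCA cycle, which supply NADH and succinate, were higher in 10 and 7 of 13 (0.047 and 0.021). The 13 regulators and factors of mitochondrial transcription were higher in 8 and 6 of 13 (0.056 and -0.027). None of these genes passed the edgeR test in either line, nor did any reach an unadjusted p under 0.05 there. For dox across both lines 1 TCA cycle enzyme and 1 regulator did reach it, against 1.49% of all entries, and none was called by edgeR. The most abundant of each list were NDUFAF3 (150 TPM), MDH2 (404 TPM) and LRPPRC (82.9 TPM). The 13 mRNAs encoded in mitochondrial DNA were not listed (0 of 13), so the chain could be read only for its nuclear part.

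Pooling the lines, with 4 dox libraries against 4 without, the members centred near 0. Of 82 members 37 were higher and 45 lower with dox, with a median of -0.010 against 0.005 over all entries, and complex medians between -0.032 (III) and 0.014 (IV). EdgeR called 0 members and 0 entries (0%), with 0 members at an unadjusted p under 0.05 (1.49% of all entries), and DESeq2 called 0 members and 1 entry (0.00571%). NDUFB9 had the smallest p, with a log2 fold change of -0.17 ± 0.093 (edgeR adjusted p = 1.0). No member had all 4 dox libraries above or all 4 below those without, against 0.503% and 0.394% of all entries. On the TPM scale the median was 0.032, with 57 of 82 members higher and a median of 0.034 over all entries, and it was 0.030 without the SLC7A2 dox replicate 2.

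Between the lines, too, no subunit passed the edgeR test, and the complexes lay on both sides of 0. With 4 libraries of each line, 33 members were higher and 49 lower in the SLC7A2 line, with a median of -0.007 against -0.004 over all entries. Complex V had 11 of 18 members higher (median 0.042) and complex IV 2 of 12 (-0.066), while complexes I, II and III had medians of -0.010, -0.013 and -0.029. EdgeR called 0 members and 0 entries (0%), with 2 members at an unadjusted p under 0.05 (12.8% of all entries), and DESeq2 called 0 members and 351 entries (2.01%). With the scaling of DESeq2 in edgeR (RLE) the median was 0.001, with 41 of 82 higher. On the TPM scale, which moved the median of all entries to between 0.088 and 0.129, 72 of 82 members were higher, with a median of 0.135, and complexes IV and V had 0.075 and 0.181. On that scale too, complex IV stood below and complex V above the other complexes; the difference between complexes was not tested.

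**Figure D4:**
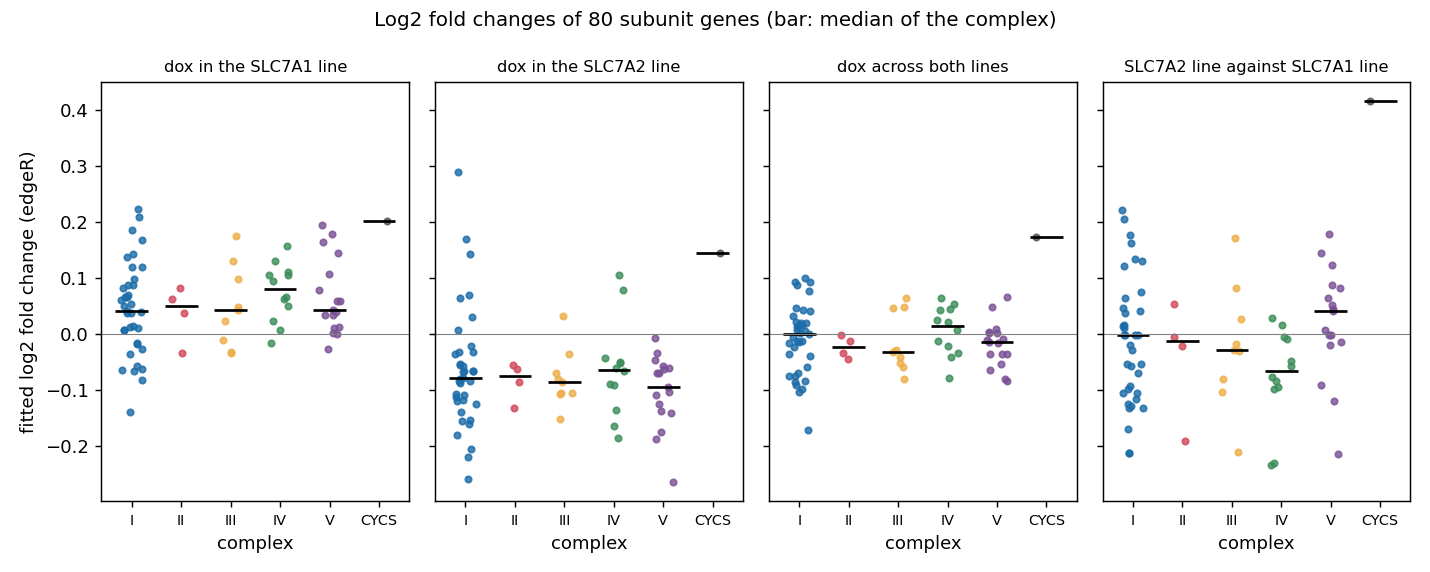
Fitted log2 fold changes (edgeR) of the 80 tested members other than the 2 readthroughs, by complex, for dox in each line, dox across both lines and the SLC7A2 line against the SLC7A1 line; bars are medians of these genes. The complexes lie mostly above 0 for dox in the SLC7A1 line and below 0 in the SLC7A2 line, and CYCS is the highest point in the comparison of the lines at 0.42.

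COX7C, a small membrane subunit of complex IV (chr5:86617941-86620962), had the smallest p of any member other than a readthrough. It had 188 and 172 CPM in the SLC7A1 line without dox, 168 and 194 with dox, 169 and 157 in the SLC7A2 line without dox, and 154 and 136 with dox. The SLC7A2 value was the lower in 4 of 4 same-numbered pairs, but the lines overlapped by 1 library, the SLC7A1 dox replicate 1 at 168 CPM. The log2 fold change was -0.23 ± 0.093 (unadjusted p = 0.0375, edgeR adjusted p = 0.375). It was -0.086 on the TPM scale (limma, unadjusted p = 0.209) and -0.15 without both SLC7A2 libraries numbered 2 (edgeR unadjusted p = 0.168). COX5A, a subunit of complex IV on the matrix side, had the lowest fitted value apart from the readthroughs (-0.23 ± 0.13, edgeR adjusted p = 0.481), with 249 CPM in the SLC7A2 dox replicate 2 against 328 to 404 CPM in the other 7 libraries, and a fitted value of -0.11 without that library. SDHA and UQCRC2 were likewise lowest in the SLC7A2 libraries numbered 2, at 203 and 194 CPM for SDHA against 248 to 275 in the other 6, and at 297 and 276 CPM for UQCRC2 against 365 to 415.

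The readthrough ATP5MF-PTCD1 had 0 counts in the 4 SLC7A1 libraries and 57.8 in the SLC7A2 line, in 3 of 4 libraries. Scaled to the library totals, these counts were 0.803 CPM over the SLC7A2 line. Against a floor of 3 counts over the whole SLC7A1 line (0.0415 CPM), this CPM is at least 19.4-fold higher. The edgeR test gave an unadjusted p of 0.0124 (edgeR adjusted p = 0.329). The entry passed the filter only through the SLC7A2 line, so this p-value is no support for a difference between the lines. Its reads overlap ATP5MF and PTCD1, so the bound depends on how reads were divided, and the fitted fold change is no bound. With the gene set to this bound the median of the members stayed at -0.007.

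In the same-numbered pairs, 5 members were higher in the SLC7A2 line in all 4 (CYCS, NDUFA8, NDUFB2, NDUFS1 and UQCR10; 12.8% of all entries) and 8 were lower in all 4 (14.1% of all entries), among them ATP5MC2, COX5A, COX7C, NDUFA13, NDUFB8, NDUFS7 and UQCRB. With scaling to the library total 9 were higher and 5 lower. NDUFS1 was the single member whose lines did not overlap. It had 22.8 to 24.1 CPM in the 4 SLC7A1 libraries and 24.8, 25.9, 25.7 and 31.4 CPM in the SLC7A2 line, a log2 fold change of 0.21 ± 0.11 (edgeR adjusted p = 0.440), which was 0.127 without the SLC7A2 dox replicate 2. Over all entries 4.36% were separated with the SLC7A2 line higher and 5.14% with it lower, so 1 of 82 members higher and 0 lower lay below both shares.

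CYCS varied most between libraries among tested members other than the readthroughs, with a ratio of 2.7 between its highest and lowest TPM. It had 207 and 252 CPM in the SLC7A1 line without dox, 215 and 313 CPM with dox, 260 and 365 CPM in the SLC7A2 line without dox, and 250 and 440 CPM with dox. The SLC7A2 line was the higher in 4 of 4 same-numbered pairs, by 0.33, 0.53, 0.22 and 0.49 on the log2 scale, but the lines overlapped. Libraries numbered 2 were the higher in all 4 groups, by 0.29, 0.55, 0.49 and 0.82. The log2 fold change between the lines was 0.42 ± 0.21 (unadjusted p = 0.0768, edgeR adjusted p = 0.429). With the replicate number as a block it was 0.39 ± 0.089 (edgeR adjusted p = 0.0694), and DESeq2 with that block gave 0.40 ± 0.092 (adjusted p = 0.000515), the single call of a member by any fit. That fit called 1450 of 17503 entries but 1 of 82 members, a smaller share, and the replicate numbers were not taken as pairs. Without the block, the edgeR value between the lines was 0.24 without the SLC7A2 dox replicate 2 and 0.057 without both SLC7A2 libraries numbered 2. In these 2 libraries, the highest for CYCS, the summed myeloid markers were lowest (2391 and 1876 TPM), with ELANE at 733 and 540 TPM against 1100 to 1738 in the other 6 and PRTN3 at 708 and 519 against 711 to 1324. LYZ (275 TPM) and CEBPA (339 TPM) were highest of the 8 libraries in the no-dox one, which also had the highest fibroblast and epithelial sums. The part of these values in the result was not tested. For dox the log2 fold change was 0.20 ± 0.31 in the SLC7A1 line and 0.14 ± 0.31 in the SLC7A2 line (edgeR adjusted p = 1.0 for each). Neither sign held: the value was -0.096 in the SLC7A1 line without its dox replicate 2, and in the SLC7A2 line -0.32 without dox replicate 2 and -0.079 without no-dox replicate 1.

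**Figure D5:**
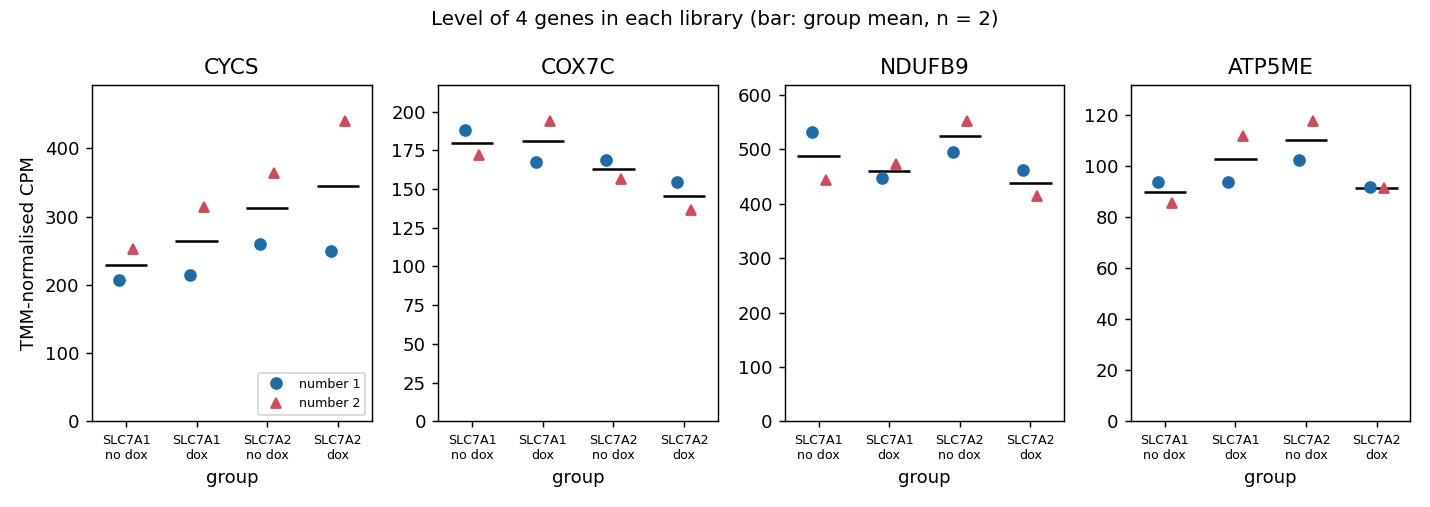
TMM-normalised CPM of CYCS, COX7C, NDUFB9 and ATP5ME in each library (circles, number 1; triangles, number 2; bars, group means, n = 2). Libraries numbered 2 are the higher for CYCS in all 4 groups, and the 2 dox libraries of ATP5ME in the SLC7A2 line stand at 91.8 and 91.3 CPM.

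The regulators stood beside CYCS in the comparison of the lines. Of the 13, 10 were higher in the SLC7A2 line, with a median of 0.26 against -0.004 over all entries, and 4 had an unadjusted p under 0.05 (12.8% of all entries) with none called by edgeR (smallest adjusted p = 0.332). The SLC7A2 libraries numbered 2 stood at 0.158 and 0.142 for the median regulator and the other 6 between -0.167 and -0.019, and without those 2 libraries the median was 0.078, with 9 of 13 higher and 1 at an unadjusted p under 0.05. The 4 with all libraries were ESRRA, an orphan receptor of energy metabolism (0.33 ± 0.12), POLRMT, the mitochondrial RNA polymerase (0.26 ± 0.10), GABPB1, a GABP subunit (0.495 ± 0.21), and, in the other direction, the coactivator PPARGC1A (-0.55 ± 0.18). Assembly factors were higher in 24 and lower in 23 of 47 (median 0.017), with none called by edgeR. Of the 47, 8 had an unadjusted p under 0.05, against 12.8% of all entries. Without the same 2 libraries 1 did. The lowest p among them was that of NDUFAF4 (0.54 ± 0.16, edgeR adjusted p = 0.320), which helps to assemble complex I. TCA cycle enzymes were higher in 8 of 13 (0.064). Cytosolic ribosomal protein genes were lower in 77 of 77 (-0.39), and mitochondrial ones higher in 51 of 77 (0.062), so the members' median lay between those of the families.

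Some related genes fell outside the rule. COXFA4, formerly NDUFA4 and now placed with complex IV, had 93.3 to 112 TPM, and its hypoxia-linked relative COXFA4L2 had 4.99 to 16.3 TPM, lower in the SLC7A2 line by a fitted value of -0.65 ± 0.31 (edgeR adjusted p = 0.419). ATP5IF1, the inhibitor of complex V, had 478 to 566 TPM, with log2 fold changes of 0.10 ± 0.13 for dox in the SLC7A1 line and 0.034 ± 0.13 in the SLC7A2 line (edgeR adjusted p = 1.0 for each).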

How the data were processed

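Each deposited file held 1 library. Per the file headers the authors gave an RSEM expected count, FPKM, TPM and a gene length for each entry above 0. TPM as deposited by the authors was used for levels, FPKM as deposited was not used, and the deposited gene length was used to split genes at 1000 bases. Genes absent from a file counted as 0. Named in the submitters' processing notes, without roles, are RSEM 1.3.1, HISAT, DESeq2 1.4.5, Bowtie2 2.3.4.3 and hg38. Strand handling was not given in the sources used here. Overlapping, antisense and near-identical genes are therefore uncertain. Symbols and coordinates came from the RefSeq table (GRCh38.p14). Assembled loci without a symbol held 6.56% to 7.25% of counts.

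Expected counts were rounded, filtered (filterByExpr, minimum 10, total 15), scaled by TMM and tested with edgeR 4.0.16 in R 4.3.3 over 17503 entries, with Benjamini-Hochberg adjustment at 0.05. The first 3 comparisons used 4 group means, and dox across both lines and the comparison of the lines used an additive fit. The SE was derived from the F statistic. Pair and library values are log2 CPM with a prior count of 2. DESeq2 1.42.0 and limma 3.58.1 on log2(TPM + 1), where fold changes of low genes are understated, were alternatives. Scripts were tested on simulated data. Replicates differed by a chi-square per entry of 20.04 to 44.1, so none was taken as a repeat deposit.

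The members and lists were chosen with earlier results of these data known. Named genes were the highest and lowest tested member of each complex, the 2 members with the smallest p in each comparison, members called by any planned fit, members that failed the filter, isoform pairs, and the most abundant gene of other lists. Genes named beyond this rule, such as those with 1 sign in all pairs, were chosen after their values were seen. The values of 1 member are not reported singly here.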

Additional observations from a re-analysis of the deposited data

How the results depend on the processing

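With the replicate block, edgeR called 2, 1, 0, 3 and 256 entries for the dox effect in the SLC7A1 line, the same in the SLC7A2 line, their difference, dox across both lines and the comparison of the lines, against 0 in each without it. DESeq2 called 9, 10, 20, 1 and 351 entries, and DESeq2 with the replicate block 45, 27, 21, 89 and 1450, the last with 1 member, CYCS. Deviations of same-numbered libraries within their groups, not the libraries themselves, were correlated over entries. Pearson's r was 0.197 and 0.312 between the groups of a line and between -0.024 and 0.15 across the lines, so the numbers were not taken as pairs. Without a filter edgeR called 2, 0, 0, 2 and 3 entries. With limma, log2(TPM + 1) gave 2, 2, 3, 0 and 0 and log2(TPM + 0.1) gave 3, 3, 3, 0 and 0. Leaving out 1 library gave 0 to 1 entries in the SLC7A2 line, across both lines and between the lines, and leaving out both SLC7A2 libraries numbered 2 gave 1 across both lines and 1 between the lines. The cause was not tested.

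The median of the members for dox in the SLC7A2 line moved from -0.075 to -0.002 on either TPM scale, and ran from -0.162 to -0.003 with 1 library left out. Of 435 complex medians under alternatives, 417 moved by less than 1 SD between replicates, though 56 had the other sign; 17 of the 18 that moved were for dox in the SLC7A2 line. Of 374 values under alternatives for 22 results on single genes, 360 kept their direction and their side of the threshold, 1 passed it (CYCS between the lines, 0.40 with DESeq2 and the replicate block) and 13, all for CYCS or NDUFA5 with libraries left out, turned sign. With 1 library left out, CYCS ran from -0.096 to 0.45 for dox in the SLC7A1 line, -0.318 to 0.499 in the SLC7A2 line, -0.517 to 0.30 for the difference and -0.0034 to 0.32 across both lines, and NDUFA5 from -0.38 to 0.15 and -0.094 to 0.60 for dox in the SLC7A1 and SLC7A2 lines. Without both SLC7A2 libraries numbered 2 the dox values there were -0.052 for CYCS and -0.10 for NDUFA5. With 2 libraries a group, the median SE of a gene was 0.152 within a line.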
